A study of Mus musculus with 2 samples.

Results

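Intronless protein-coding genes are nuclear genes whose every annotated transcript is a single exon. In the annotation used for these libraries, GENCODE M21 on mouse genome build mm10, 1331 protein-coding genes outside the mitochondrial genome had transcripts of 1 exon only. Of these, 401 had at least 1 read in either library and are described here, and 930 had none. The members were chosen by annotation and by the presence of a read, and not by how they differed between libraries. The tissue was adult mouse cortex (left cerebral cortex, strain B6NCrl, called C57BL/6 in another field, 6 months of age, with no treatment named), and its total RNA was read as long cDNA molecules. There was a single group with biological replicates 1 and 2, hence no comparison of conditions. The replicates share a donor record, and as separate animals are not named, the spread between these libraries may be technical. One label field called the tissue male and another gave the sex as not collected.

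A gene without introns gives a messenger RNA that needs no splicing, only capping, cleavage and usually a poly(A) tail. Many such genes arose when a spliced messenger RNA was copied back into the genome, which makes a retrocopy of a parent gene elsewhere. Others belong to families in which many genes lack introns, such as the histones, the olfactory receptors and other G protein-coupled receptors. Several transcription factors of the nervous system (the SOX and POU families) and of the rapid response to signals (the AP-1 family, which binds DNA as dimers) are also encoded in a single exon. For long-read data these genes differ from others in a practical way, since an unspliced read holds no splice site that could show its strand or separate it from genomic DNA.

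The following stretches are the 100 bases of highest GC content in the coding sequence of 6 intronless genes, all read 5′ to 3′ on the gene's own strand from the GENCODE M21 transcripts. They are shown because GC content moved with the difference between the libraries. Capitals mark runs of 8 or more bases that are all G or C. The first 3 genes were lower in replicate 2, and the other 3 were not called different. They were picked after their values were seen, from genes with over 100 reads in replicate 1.
Jund, chr8:70699626-70699725, plus strand, 86% GC, 325 and 11 reads: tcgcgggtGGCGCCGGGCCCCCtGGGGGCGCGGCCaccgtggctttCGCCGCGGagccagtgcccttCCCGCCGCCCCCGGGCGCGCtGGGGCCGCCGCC
Tmem158, chr9:123260033-123260132, minus strand, 85% GC, 189 and 13 reads: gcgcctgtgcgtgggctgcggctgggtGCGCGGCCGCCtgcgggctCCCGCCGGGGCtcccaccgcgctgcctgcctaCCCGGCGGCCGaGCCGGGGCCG
Ier5, chr1:155098849-155098948, minus strand, 84% GC, 106 and 20 reads: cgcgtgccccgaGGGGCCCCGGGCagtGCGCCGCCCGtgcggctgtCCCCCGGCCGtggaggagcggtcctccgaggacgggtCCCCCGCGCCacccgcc
Purb, chr11:6475771-6475870, minus strand, 93% GC, 147 and 202 reads: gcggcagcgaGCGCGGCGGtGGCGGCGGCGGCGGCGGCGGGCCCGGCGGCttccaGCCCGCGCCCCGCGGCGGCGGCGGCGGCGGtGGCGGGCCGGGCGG
Pnmal2, chr7:16946773-16946872, plus strand, 78% GC, 356 and 343 reads: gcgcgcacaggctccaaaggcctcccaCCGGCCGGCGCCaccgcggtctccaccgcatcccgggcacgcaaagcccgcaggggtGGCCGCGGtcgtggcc
Bmyc, chr2:25707078-25707177, plus strand, 76% GC, 251 and 241 reads: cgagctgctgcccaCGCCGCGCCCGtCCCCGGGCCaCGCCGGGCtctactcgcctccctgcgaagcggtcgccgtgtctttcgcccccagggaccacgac
In each line the read counts are those of replicate 1 and replicate 2, in that order. Purb held the richest stretch of the 6 and was not lower in replicate 2.

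Replicate 1 held 1306424 reads and replicate 2 held 1304133 reads in all. Levels are given as CPM: the reads of a gene over all reads of its library, times 1000000. A long read stands for 1 cDNA whatever its length, so these levels were not divided by gene length. A single read was worth 0.765 CPM in the first library and 0.767 CPM in the second, and a count of 0 allowed up to 3 reads, or 2.30 CPM, in either library. These limits, and the intervals below, cover counting error only. Markers of neurons, astrocytes, oligodendrocytes, microglia and endothelial cells had reads in both libraries, and the olfactory epithelium genes Omp and Cnga2 had none. Some markers differed between replicates 1 and 2: the neuronal gene Slc17a7 had 130 and 36 reads and Camk2a 390 and 691, the choroid plexus gene Ttr 73 and 46, and the globin genes Hbb-bs and Hba-a1 23 and 5, and 16 and 7. Their part in the results below was not tested. In tissue RNA of this kind, fewer cells of a type and less RNA per cell cannot be told apart.

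Intronless genes took about 1 read in 100. Replicate 1 assigned 13026 reads to them (0.997% of the library) and replicate 2 assigned 11611 (0.890%), which is 9437 ± 755 CPM (SD, n = 2) in sum. Reads were found for 352 of the genes in replicate 1, for 353 in replicate 2 and for 304 in both. Detection was sparse: 30.1% of the annotated intronless genes had a read, against 70.4% of the 20684 multi-exon protein-coding genes. The median intronless gene with a read had 13 reads over both libraries, and the median multi-exon gene had 36. In all, 61 members rested on a single read, 217 had at least 10 reads, and 63 had at least 100. The genes with a read had a median length of 2065 bases, and those without one of 952.5 bases.

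The reads were concentrated in few genes, and the 20 genes of highest mean level held 42.4% of the members' reads in replicate 1 and 47.6% in replicate 2. Rpl10-ps3 (ENSMUSG00000058443.5, chromosome 9, 50344201 to 50344968, minus strand), an intronless copy of the gene of ribosomal protein L10, led with 755 and 678 CPM (here and below, replicate 1 is given first and replicate 2 second). Ndn (ENSMUSG00000033585.5, chromosome 7, 62346569 to 62350262, plus strand), an imprinted gene that encodes necdin, a MAGE family protein of post-mitotic neurons, had 247 and 474 CPM. Its level was thus higher in replicate 2, by less than the 2-fold limit used below. Most of the genes that came next differed little between the libraries. Pnmal2, of a protein family derived from the gag gene of a retrotransposon, had 272 and 263 CPM. Rprml, a relative of the cell cycle inhibitor reprimo, had 207 and 204 CPM. Sf3b5, a subunit of the splicing factor SF3b, had 185 and 188 CPM. Tspyl1, of the nucleosome assembly family, had 203 and 183 CPM, and Bmyc, a relative of Myc, had 192 and 185 CPM. From Rprml down to Sf3b5 the 7 genes had means between 187 and 205 CPM, and their order did not hold in both libraries. Cldn5, the claudin of endothelial tight junctions in brain vessels, had 149 and 178 CPM. Jund and Pcbp1 stood apart among the 20, as both were far higher in replicate 1.

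**Figure D1:**
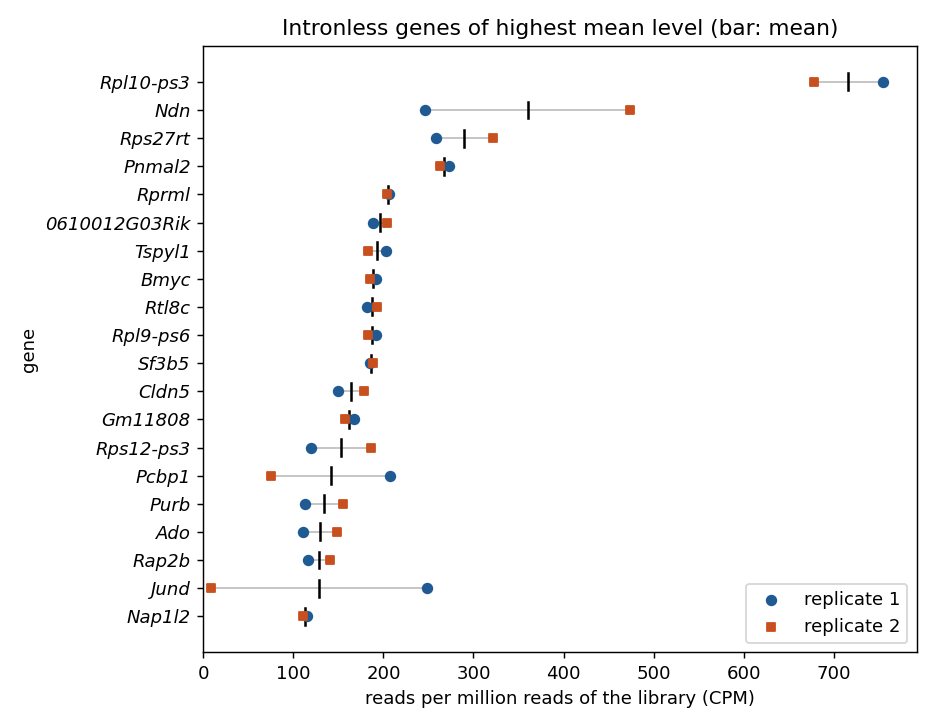
Level of the 20 intronless genes of highest mean CPM, with 1 point per library (circles: replicate 1, squares: replicate 2) and the mean as a black bar. Rpl10-ps3 leads in both libraries, most of the other genes have 2 nearly equal values, and Jund (249 and 8.43 CPM), Pcbp1 (207 and 75.2 CPM) and Ndn (247 and 474 CPM) have values far apart.

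The libraries were compared gene by gene over all 11838 annotated genes with at least 10 reads, by an exact two-sided binomial test of the 2 counts against the library totals with Benjamini-Hochberg adjustment. Calls needed both an adjusted p under 0.05 and a difference of at least 2-fold, with 0.5 counts added to each library. With 2 libraries of 1 group this test compares these libraries with counting noise, and not conditions. Of the 217 intronless genes tested, 34 (15.7%) were lower in replicate 2, beside 5.44% of all genes tested. A further 6 (2.76%) were higher in replicate 2, beside 1.61% of all genes tested. Among multi-exon protein-coding genes alone, 5.44% were lower and 1.49% higher. The median log2 ratio of replicate 2 over replicate 1 was −0.019 for the members and 0.0025 for all genes tested. Of the 217 members, 111 lay within 1.5-fold. The median near 0 did not hold for all kinds of members, since medians in ranges of GC content ran from 0.18 to −0.73, as given below. The count of higher genes was unstable. It was 10 with levels scaled to nuclear genes (4.61% of members, 1.93% of all genes tested). It was 3 of 163 without members that overlap, lie within or nearly equal another gene (1.84%, beside 1.61% of all). In these settings the count of lower genes was 34 (15.7%, beside 5.2%) and 29 (17.8%, beside 5.44%).

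The genes that were lower in replicate 2 included some with no read in it. Cebpb (ENSMUSG00000056501.3, chromosome 2, 167688915 to 167690418, plus strand), a transcription factor of inflammation and metabolism, had 101 reads in replicate 1 and 0 in replicate 2, so it was at least 33.6-fold lower against the limit of 3 reads, with a lower counting limit (95%) of 26.8-fold (adjusted p = 1.05e-28 by the exact binomial test). Mocs3, an enzyme of molybdenum cofactor synthesis, had 39 and 0 reads and was at least 12.98-fold lower, with a lower counting limit of 10.06-fold. The linker histone gene H1fx had 23 and 0 reads, and Fancf, of the Fanconi anaemia DNA repair complex, had 18 and 0. Jund (ENSMUSG00000071076.6, chromosome 8, 70698949 to 70700616, plus strand), an AP-1 subunit and one of the most abundant members in replicate 1, had 325 reads there and 11 in replicate 2. This was a 29.5-fold difference with a counting interval of 16.3 to 59.7 (95%, adjusted p = 8.20e-79 by the exact binomial test). Tmem158, which encodes a membrane protein, had 189 and 13 reads, and Epop, a partner of the Polycomb complex PRC2, had 137 and 14. Irf2bp1, a transcriptional corepressor, had 19 and 1, and Adra2c, the alpha-2C adrenergic receptor, had 31 and 3. Exosc6, a subunit of the RNA exosome, had 82 and 9 reads, and its exon overlaps an exon of Aars on the same strand. With all same-strand reads over the exon counted, its log2 ratio moved from −3.12 to −1.69. These 10 genes had the largest ratios in this direction by assigned reads. The other 24 had log2 ratios between −3.06 (Fzd9, a Wnt receptor) and −1.13 (Ccdc184).

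The 6 genes that were higher in replicate 2 differed by 2.50-fold to 5.68-fold. Rraga, the RagA GTPase that signals amino acid supply to mTORC1, had 35 and 137 reads, a 3.92-fold difference. Hist3h2ba, a histone H2B gene, had 8 and 44, Cdr1 had 7 and 31, and Pcdhb20, a clustered protocadherin, had 3 and 17. Gm10053, nearly identical to the cytochrome c gene Cycs, had 7 and 22 reads, and Gm9945 had 12 and 30. The calls of Gm10053 and Gm9945 were lost when the libraries were scaled with TMM or DESeq2 factors.

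**Figure D2:**
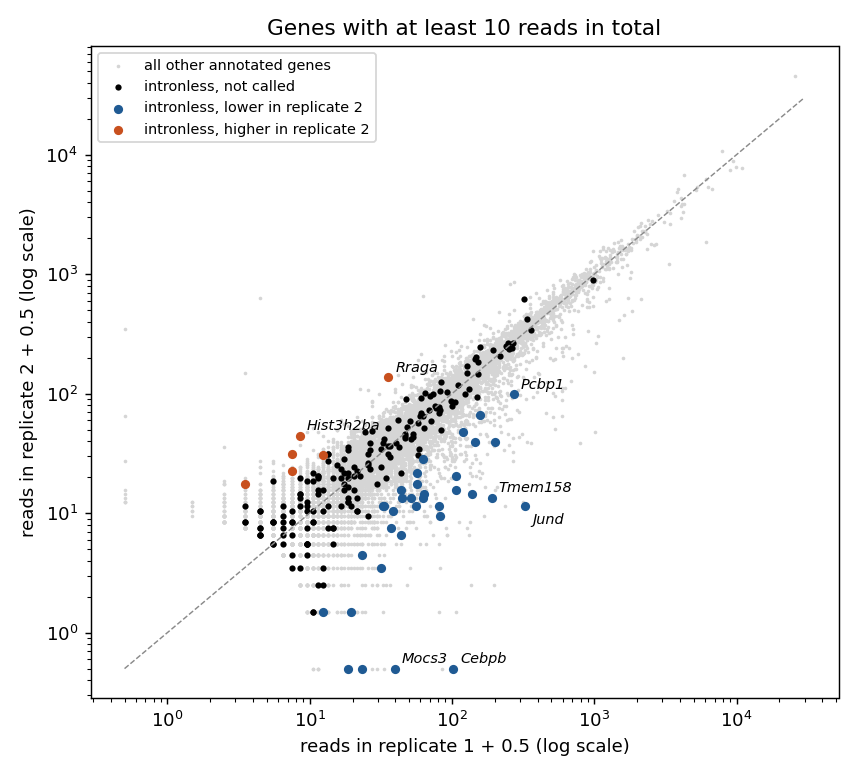
Reads in replicate 1 against reads in replicate 2 (both with 0.5 added, on log axes) for the 11838 genes with at least 10 reads, intronless genes as large points and all other genes as small grey points, with the line of equal counts dashed. The 34 intronless genes lower in replicate 2 lie below the cloud, with Cebpb and Mocs3 on the floor of 0 reads. The 6 higher ones lie above it, all but Rraga (35 and 137 reads) at low counts.

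GC content moved with these differences. The measure used was the highest GC content in any 100 bases of the transcript, which had been chosen with the library ratios of all genes in view, so the values are a description. The genes lower in replicate 2 had a median peak of 84.5% GC, with a range of 77% to 94%. The 6 higher genes had a median peak of 64.5%, from 51% to 76%, and the 176 uncalled genes with a sequence one of 77%. None of the 40 tested intronless genes with a peak under 70% was lower in replicate 2, and 4 of 88 (4.55%) were between 70% and under 80%. The share was 29.5% (13 of 44) between 80% and under 85%, and 38.6% (17 of 44) from 85% on. The median log2 ratios of the intronless genes in these 4 ranges were 0.18, 0.04, −0.48 and −0.73. Multi-exon genes moved the same way, at 1.66%, 2.77%, 11.9% and 19.0% in the same 4 ranges, smaller shares in all but the first range. Their median log2 ratios were 0.11, 0.03, −0.16 and −0.26. More of the tested intronless genes had a peak of 80% or more, namely 40.7% against 25.8% of multi-exon genes. Across the 216 tested members with a sequence the Spearman correlation of the log2 ratio with the peak was −0.353, and with length it was 0.008. These members share the same 2 libraries, so the correlations are descriptions. In 15 of the 34 lower genes the whole peak stretch lay in coding sequence, as in the lines for Jund, Tmem158 and Ier5 above. Rich stretches were also found in genes that were not lower, such as Purb (93%), Pou3f3 (92%) and Ier5l (88%). The part that GC content played in the differences was not tested.

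**Figure D3:**
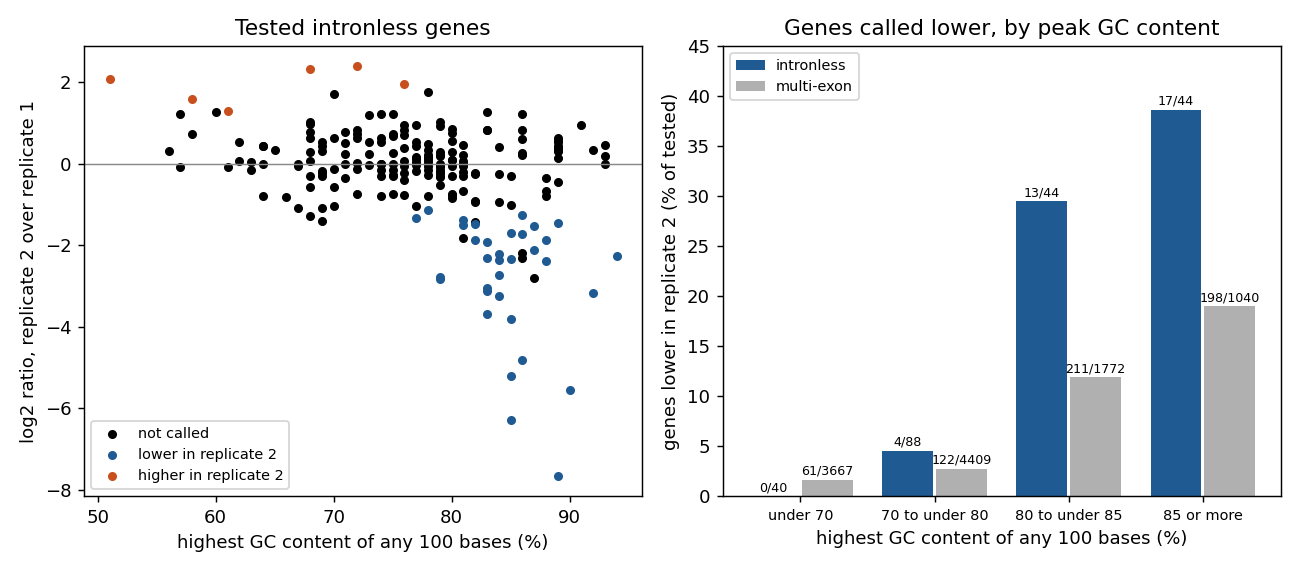
Left, the log2 ratio of replicate 2 over replicate 1 for each tested intronless gene against its highest GC content in 100 bases; right, the share of tested genes called lower in replicate 2 in 4 ranges of that value, for intronless and multi-exon protein-coding genes, with the counts above the bars. The intronless genes called lower have peaks of 77% to 94% GC, and 13 of 44 and 17 of 44 intronless genes were lower in the 2 upper ranges.

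By function, the AP-1 and early response regulators differed the most between the libraries in summed CPM. All 9 annotated genes of this list had a read, and their summed level was 678 and 156 CPM. Of the 8 tested, 5 were lower in replicate 2 (Jund, Cebpb, Rhob, Ier2 and Ier5) and none was higher, with a median log2 ratio of −1.60 beside 0.0025 for all genes tested. Among all intronless genes tested, 15.7% were lower. The GTPase gene Rhob had 144 and 39 reads, and the immediate early genes Ier2 and Ier5 had 119 and 47, and 106 and 20. Jun, the AP-1 subunit that is often induced together with them, had 48 and 52 reads, with a log2 ratio of 0.12 and no call. Ier5l had 31 and 24 reads and no call. The list therefore did not move as a block. The peak GC content of the 5 lower genes was 77% to 89%, and that of the uncalled Jun and Ier5l was 78% and 88%.

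Transcription factors of neural development were present at low levels. Of 24 annotated SOX, POU and forkhead genes, 15 had a read, 132 ± 20.96 CPM in sum (SD, n = 2). Of the 7 tested 1 was lower, beside 15.7% of all intronless genes tested. That gene was Sox4, a factor of progenitors and immature neurons, with 63 and 14 reads (adjusted p = 4.43e-07 by the exact binomial test). The cortical POU factor genes Pou3f3, Pou3f2 and Pou3f1 had 26 and 33, 11 and 20, and 21 and 13 reads, and Sox11 had 18 and 33. Sox2, a factor of stem cells and astrocytes that lies within an intron of Sox2ot on the same strand, had 17 and 15. None of these passed the test. Among other neural factors, Purb, which binds purine-rich single strands, had 113 and 155 CPM, and a small RNA gene, Gm22123, overlaps its exon. Olig1, a factor of the oligodendrocyte lineage, had 114 and 72.1 CPM, below the 2-fold limit. Nrarp, a feedback inhibitor of Notch, had 43 and 6 reads. It was the only one of the 4 tested that was called, where 15.7% of all intronless genes tested were lower.

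Receptors and signalling proteins without introns were mostly rare. Of 49 annotated G protein-coupled receptors outside the chemosensory families, 18 had a read, 101 ± 28.0 CPM in sum (SD, n = 2), and 8 had enough reads to be tested. Of these Adra2c and the orphan receptor Gpr27 (38 and 10 reads) were lower in replicate 2, beside 15.7% of all intronless genes tested. Gpr135 had 18 and 21 reads. Frizzled receptors and small secreted or reprimo proteins gave 290 ± 15.5 CPM, most of it from Rprml and from Rprm (64 and 100 reads). Fzd2, Fzd1 and Fzd7, receptors for Wnt, had between 3 and 10 reads in each library. Rap2b, a small GTPase of the Ras family, had 116 and 141 CPM. Cdk5r2, an activator of the neuronal kinase Cdk5, had 9 and 12 reads, and Frat1, which binds the kinase GSK3, had 60 and 91. The potassium channel subunit gene Kcnf1 had 46 and 45 reads, and Kcna3 had 12 and 3. The clustered beta protocadherins, neuronal adhesion proteins of which each cell expresses a selection, had reads for 17 of 18 genes, but only 45.2 and 63.6 CPM in sum. Pcdhb9 led them with 11 and 14 reads. The beta protocadherin genes named here lie within introns of longer same-strand gene models.

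Chemosensory and skin families had no reads at all. None of the 208 annotated intronless olfactory, vomeronasal and taste receptor genes had a read in either library, which allows up to 3 reads in each. The same held for the 53 keratin-associated and skin protein genes. These families made up 261 of the 930 intronless genes without a read.

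Genes of RNA processing and of ribosome assembly gave 1016 and 806 CPM in sum, and 3 of the 16 tested were lower in replicate 2, a share near the 15.7% of all intronless genes tested. They were grouped after their values were seen. Besides Sf3b5 and Exosc6, Pcbp1, a poly(C)-binding RNA-binding protein, had 271 and 98 reads and was lower in replicate 2 (log2 ratio −1.46, adjusted p = 5.38e-18 by the exact binomial test). Imp3, a U3 snoRNP protein, had 92 and 103 reads, and Cstf2t, a form of cleavage stimulation factor, had 73 and 99. Znhit2 had 77 and 76 reads, Rrs1, a ribosome biogenesis factor, 63 and 51, and Utp3, of the small subunit processome, 57 and 56. Of Sf3b5, Imp3, Cstf2t, Znhit2, Rrs1 and Utp3 none was called.

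Chromatin proteins formed another large group. The NAP1 and TSPY-like genes, grouped in the same way, gave 419 and 432 CPM in sum, with Nap1l2 at 116 and 111 CPM, Nap1l3 at 45.2 and 49.8 CPM and Tspyl3 at 25 reads in each library. Nap1l2 and Nap1l3 are X-linked nucleosome assembly genes, and Nap1l2 lies within an intron of 4930519F16Rik. The MAGE genes, which encode adaptors of ubiquitin ligases, included Ndn, the SMC5/6 complex gene Nsmce3 (104 and 84 reads), Magee1 (41 and 60) and Mageh1 (14 and 19). Histone genes gave 420 ± 15.7 CPM in sum (SD, n = 2) from 30 of 70 annotated genes, and 15 of these 30 have a near copy. Messenger RNAs of the replication-dependent histones end in a stem-loop in place of a poly(A) tail. Among the leading histone genes, Hist3h2a had 126 and 169 reads, with an exon of Trim17 across it on the same strand. The linker histone gene H1f0 and the variant gene H2afx had 60 and 69, and 71 and 58. Of 15 histone genes tested, H1fx was lower and Hist3h2ba higher in replicate 2, beside 15.7% lower and 2.76% higher of all intronless genes tested.

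Genes derived from retrotransposon gag gave 637 and 536 CPM in sum. Of the 7 tested 2 were lower in replicate 2, beside 15.7% of all intronless genes tested. Rtl8b had 106 and 15 reads and Rtl8a had 81 and 11, and as these genes are 99.6% identical to each other over the aligned part, they are not independent cases. Their relative Rtl8c had 238 and 251 reads and Pnmal2 had 356 and 343. Rtl6 had 24 and 47 reads, and Pnma1 had 5 and 18 with an adjusted p of 0.0507 by the exact binomial test. Of 6 imprinted intronless genes, 4 had a read. Besides Ndn, Zrsr1 had 13 and 31 reads, Mcts2, which lies in an intron of H13, had 13 and 27, and Mkrn3 had 2 and 0. All 3 of these genes that were tested had more reads in replicate 2, with a median log2 ratio of 1.03, and none was called. For Ndn the adjusted p was 1.85e-20 by the exact binomial test, with a log2 ratio of 0.94, just under the limit.

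Other lists held few genes. Among heat shock genes, Dnajc30, a mitochondrial DnaJ protein, had 132 and 109 reads, and the inducible Hspa1a had 8 and 19 with a near copy in Hspa1b. Of the KLHL, BTB and F-box genes, Klhl9, a substrate adaptor of a cullin ubiquitin ligase, had 128 and 149 reads and Kbtbd7 had 11 and 19. B3galt6, which builds the linker of proteoglycans, had 100 and 79 reads. Otud1, a deubiquitinase, had 44 and 13 and was lower in replicate 2 (adjusted p = 8.07e-04 by the exact binomial test). Predicted and unnamed reading frames numbered 434 in the annotation and 89 with a read, and gave 739 ± 12.1 CPM in sum (SD, n = 2), led by 0610012G03Rik with 246 and 266 reads.

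A part of the members could not be told apart from other genes by sequence or position. The exon of 22 overlapped an exon of another gene on the same strand, 41 lay within an intron of one, and 66 had a near copy (at least 97% identity over most of the length). The 284 members with none of these held 71.6% of the members' reads in replicate 1 and 68.5% in replicate 2. Copies of multi-exon genes were the largest case: 38 members were nearly identical to a multi-exon gene and took 17.7% and 20.5% of the members' reads. They are called retrocopies here, and the multi-exon genes parents, by this identity alone. How each copy arose was not tested, and some pairs, such as Hist1h2bj and Hist1h2bq on chromosome 13, share a chromosome. A spliced messenger RNA of the parent and the RNA of its retrocopy differ at few or no bases, and how reads that match both were placed is not given in the sources used here.

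The share of reads given to the retrocopy ranged widely. Rpl10-ps3 had 986 and 884 reads while Rpl10, to which it is 100% identical over 740 bases, had 57 and 59, so that the copy held 94.5% and 93.7% of the reads of the pair. For the other abundant pairs the parent had more reads. Rps27rt had 337 and 419 reads against 798 and 987 for Rps27, a share of 29.7% and 29.8%. Rps12-ps3 had 35.1% and 38.4% of the reads of its pair with Rps12, and Sap18b, a copy of Sap18 of a histone deacetylase complex, 35.2% and 27.4%. Rpl9-ps6 had 18.5% and 14.95% of the pair with Rpl9. Among the 14 retrocopies with at least 20 reads the share ran from 0.473% to 94.5% with a median of 11.5%. The level of such a member cannot be told apart from that of its parent.

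The class given to each read by TALON, the program that matched the reads to the annotation, differed from that of other genes. Reads on known transcripts made up 97.4% and 97.1% of the members' reads, with Clopper-Pearson intervals (95%) from 97.2% to 97.7% and from 96.8% to 97.4%. In multi-exon genes these shares were 69.7% and 64.6%. For a 1-exon transcript the class says little, since an unspliced read on the exon was listed with the annotated ends, and whether it reached both ends cannot be seen. Reads on models with an intron made up 2.56% (333 reads) and 2.70% (313 reads) of the members' reads. In multi-exon genes they made up 88.3% and 84.1%.

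Most reads with an intron came from a single gene. Rtl8c (ENSMUSG00000051851.5, chromosome X, 53608032 to 53608432, plus strand) is annotated as 1 exon of 401 bases with its coding sequence at bases 15 to 350. No read of it was of the known class, and most (237 and 232) were of the class that TALON names Genomic. All 238 reads of replicate 1 and 232 of the 251 of replicate 2 had an intron that began near the end of the annotated exon. In 237 and 232 of them it ran from 53608425 to 53608685, 261 bases, and led to a further exon that ended at 53608979, outside the annotated gene. The other 19 reads of replicate 2 covered this second exon alone. The intron begins after the stop codon, so the spliced models hold the whole annotated coding sequence and a spliced 3′ untranslated region. How far each read reached cannot be seen from the models. The last 20 annotated bases, with the first 2 bases of the intron in capitals, are shown because they hold the usual GT of a splice donor.
Rtl8c donor: ggctacaagaggGTgagctg
Without Rtl8c, spliced reads fell to 0.743% (95 reads, interval 0.601% to 0.907%) and 0.713% (81 reads, 0.567% to 0.885%) of the members' reads.

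**Figure D4:**
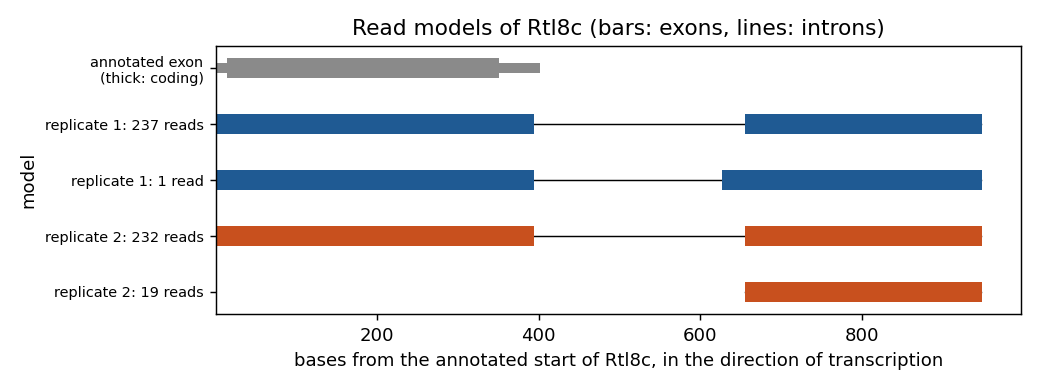
Models of the Rtl8c reads by distance from the annotated start, with exons as bars, introns as lines and the read count of each model at the left (blue: replicate 1, orange: replicate 2). The grey bar is the annotated exon with its coding part thick, and 237 and 232 reads share an intron that leaves this exon just before its end.

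Other introns were rare and shared by few reads. In all, 124 introns were seen in 68 members, and 22 of them, in 19 members, were seen in both libraries. Fndc10, which encodes a fibronectin type III protein, had 7 reads in each library with an intron of 450 bases in its 3′ untranslated region, and its share of known reads (73.2% over both libraries) was the lowest after Rtl8c among genes with at least 20 reads in each. Its borders read as follows, with the first and last 2 bases of the intron in capitals.
Fndc10 donor: ctgcacccagggGTgagtgtcctc
Fndc10 acceptor: ttctcaccccAGcgaccgtgatga
Chrm4, the M4 muscarinic acetylcholine receptor gene, had 8 and 1 reads with an intron of 4873 bases that joined an upstream exon outside the annotation to its exon. Cldn5 had 1 and 6 reads with an intron of 910 bases that spanned its whole annotated coding sequence, from 195 and 232 reads in all. Rpl10-ps3 had 8 and 2 reads without 163 bases of its coding sequence, with GC and AG at the borders. Of the 49 introns that lay inside an annotated exon, 38 had GT and AG at their ends and 8 had GC and AG, but 37 rested on a single read.

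Antisense reads lay over intronless genes more often than over other genes. For every 100 sense reads of the members there were 7.02 antisense reads in replicate 1 and 10.8 in replicate 2, or 8.91 ± 2.67 (SD, n = 2). Over the exons of multi-exon genes the values were 3.96 and 5.87, or 4.92 ± 1.35, so the values of the members were higher in each library. In each library 80 members had an antisense read, 55 of them in both, and the 10 genes with the most held 71.2% and 74.7% of these reads. Without the 5 genes of most antisense reads the value for the members was 4.65 ± 1.68 per 100. The antisense reads of the members were thus concentrated in few genes. The multi-exon genes kept their own leading genes, so this value cannot be set against theirs.

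In some genes the antisense reads were as numerous as the sense reads. Ado (ENSMUSG00000057134.5, chromosome 10, 67544511 to 67548955, minus strand), which encodes a thiol dioxygenase, had 144 antisense and 145 sense reads in replicate 1, and 229 and 194 in replicate 2. Klhl9 had 98 and 103 antisense reads in replicates 1 and 2, Inafm2 88 and 110, Tspyl1 79 and 97, and Rap2b 80 and 89. Inafm2 had 83 and 125 sense reads, while Tspyl1 had 265 and 239 and Rap2b 152 and 184, well above their antisense reads. The next were Gm10031, a near copy of the casein kinase gene Csnk2a1, with 31 and 91, Purb with 35 and 83, Frat1 with 44 and 62, Sephs2, a selenophosphate synthetase gene, with 29 and 35, and Sox11 with 23 and 38. For most of these genes TALON gave nearly all antisense reads of a library to a single model of 1 exon, and the reads of a model are listed with 1 pair of ends. Purb had 49 and 34 reads on 2 models with different ends in replicate 2.

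These models ended beside runs of T. The 20 bases of the sense strand that lie just past the 3′ end of the antisense model are given here for 5 genes, in sense orientation, because the antisense strand reads them as a run of A. All lie in the 3′ untranslated region.
Ado, replicate 1: ttttttttttttttttttta
Klhl9, both replicates: tttttttttttttttttggt
Inafm2, both replicates: tctttttttttttttttttt
Frat1, both replicates: tttttttttttttttttttg
Sephs2, both replicates: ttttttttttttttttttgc
For Klhl9, Inafm2, Frat1 and Sephs2 the model ended at the same base in both libraries. Models that ended within a member's exon held 785 antisense reads in replicate 1 and 1170 in replicate 2. Of these reads, 700 (89.2%) and 802 (68.5%) were on models with at least 15 T in these 20 bases. Of all stretches of 20 bases in the members' transcripts, 0.239% had as many T. All reads of a model were counted at its 1 listed end. The shares thus rest on the models with most reads and do not count separate ends. Purb was an exception, the Tspyl1 model of replicate 2 had 14 T, just under the limit, and in replicate 2 the model of Rap2b ended 28 bases away from the T run at which it ended in replicate 1.

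Members that hold such a run carried most of the antisense reads. The 125 members with a stretch of 20 bases holding 15 or more T had 20.3 and 33.4 antisense reads per 100 sense reads in replicates 1 and 2. The 273 members without one had 1.26 and 1.23. Members with a run were longer, at a median of 3100 against 1629 bases. Among members of 3000 bases or more the values were 27.1 and 38.3 with a run (69 genes) and 3.94 and 3.76 without (49 genes). How the reads were oriented is not given in the sources used here, and the part of the T runs in the antisense reads was not tested.

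**Figure D5:**
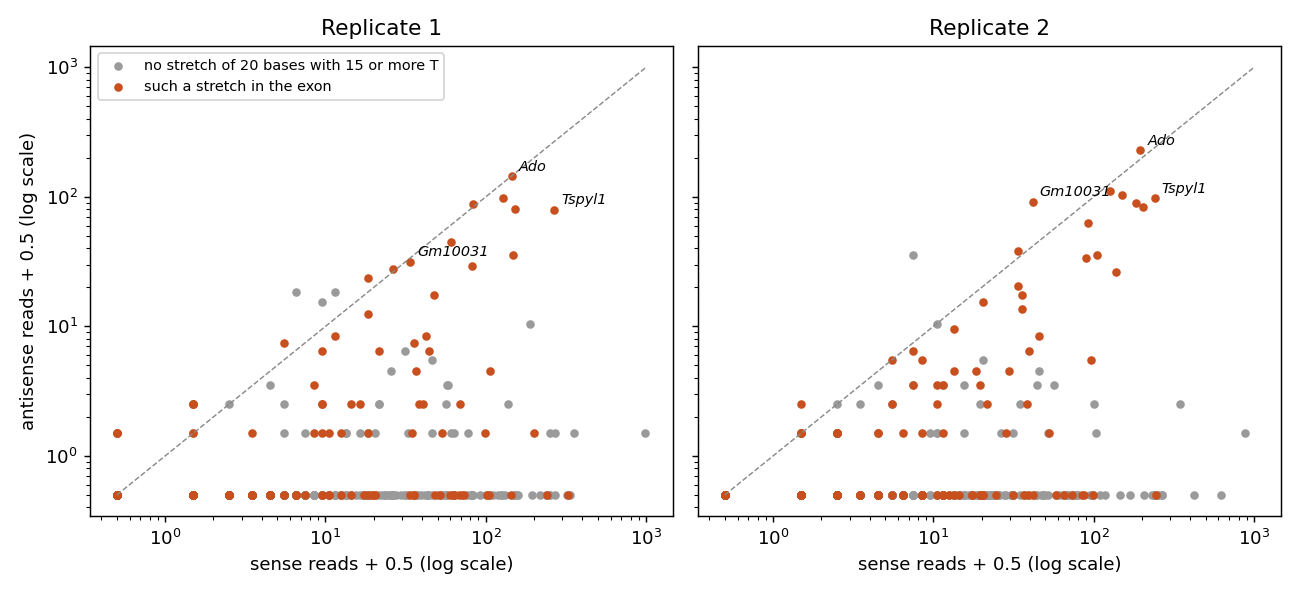
Antisense against sense reads of each intronless gene in replicate 1 (left) and replicate 2 (right), both with 0.5 added and on log axes, with the line of equal counts dashed. Genes with a T-rich stretch in the exon (orange) hold nearly all high antisense counts, and Ado lies beside the line in replicate 1 and above it in replicate 2.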

How the data were processed

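The deposited tables hold counts: whole reads that the authors assigned to each transcript model with TALON, per the file headers and annotation source fields, with no normalization. Per the file headers, the deposited tables also hold other values (exon number and length per model), and the deposited annotations hold positions on mm10 with GENCODE M21. Aligner, instrument and TALON version: not given in the sources used here.

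Model counts were summed per annotated gene with Python 3.11.15 and tested with SciPy 1.17.1. The binomial test was tested on simulated counts that held only counting noise and planted changes. Those counts had no further spread between libraries, so they cannot show how the test behaves with such spread. TMM factors from edgeR 4.0.16 and size factors from DESeq2 1.42.0 entered alternatives only. Near copies came from blastn 2.17.0 on the M21 transcripts, at 97% identity over at least 200 bases and 50% of the gene (80% for short genes). Of the 401 members, 398 had a sequence. Antisense reads were reads of TALON models classed as antisense that overlap the exon. Gene lists, members and the GC measure were chosen with earlier results of these data known, and 4 lists or groupings and some alternatives after the values of these members were seen. Named genes are the 20 of highest level, the leading genes within the lists, called genes with the most extreme ratios, and those with most spliced or antisense reads or the lowest known share; the text omits some of them. Results on some genes are not reported here.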

Additional observations from a re-analysis of the deposited data

How the results depend on the processing

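No paired analysis was possible because the libraries form a single group. The count of genes lower in replicate 2 stayed within 1.5 times 34 (29 to 38) under every alternative run. The number tested changed as well: with no count filter 34 of 401 members (8.48%) were lower, beside 3.17% of all genes. The share over all genes moved more: with known transcripts alone 16.5% of members and 10.4% of all genes were lower, and with 1-exon models alone 16% and 1.61%. For higher genes the order turned with 1-exon models alone, at 2.35% of members and 4.88% of all genes. The count of higher genes was 6, but 10 with scaling to annotated nuclear genes (4.61% of members, 1.93% of all genes). With no limit on size it was 14 (6.45%, beside 4.72% of all genes). It was 3 of 163 (1.84%, beside 1.61%) without members that overlap, lie within or nearly equal another gene, an alternative added after seeing the data. Genes with a read fell from 401 to 217 at a minimum of 10 reads. The summed level was 10558 CPM when scaled to nuclear genes, as mitochondrial and unannotated reads leave the total, and 8903 to 9971 CPM with either library left out. The share of reads with an intron was 2.795% without Rpl10-ps3 and 0.728% without Rtl8c, and 2.56% to 2.70% by library. Antisense reads per 100 sense reads were 4.65 without the 5 leading genes and 7.02 to 10.8 by library; the cause of the shifts was not tested. Shares of unspliced new models that start or end near the annotated ends could not be computed, since the members had 0 such reads in replicate 1 and 19, all of Rtl8c, in replicate 2. Genes with few reads, 184 of the 401, were below the minimum for a test.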
